A study of Mus musculus with 11 samples.

Results

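The 7 genes described here are Nodal, Tdgf1, Acvr2b, Lefty1, Lefty2, Smad7 and Skil, which encode a ligand, its co-receptor and a receptor, and feedback inhibitors and targets of the Nodal branch of TGF-beta signalling in mouse embryonic stem cells (ESCs). They are 7 of the 54838 genes counted in each library. They were selected on CPM (the reads of a gene scaled to the total counted in its library) over the same 3 siRNA groups that are compared below, so their levels and differences are given as a description, with no p-values, and the counts of members called below are given only beside the share of all genes called.

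Nodal is a secreted ligand that binds type I and type II activin receptors together with the co-receptor encoded by Tdgf1, also called Cripto. The receptors phosphorylate SMAD2 and SMAD3, which enter the nucleus with SMAD4 and act on target genes with partners such as FOXH1. The Lefty proteins antagonize the ligand outside the cell, while SMAD7 and the corepressor SnoN, encoded by Skil, restrain the signal inside it, and mouse ESCs kept in self-renewing culture have this pathway active.

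The study asked how RNA levels respond when CMTR1, the enzyme that methylates the ribose of the first transcribed nucleotide next to the RNA cap, is targeted by siRNA. Cells of the E14 line, an established mouse ESC line, were transfected for 36 h with a scrambled control siRNA (3 libraries), CMTR1 siRNA 1 (4 libraries) or CMTR1 siRNA 2 (4 libraries). All groups shared the transfection, LIF, Knockout Serum Replacement medium and gelatin-coated dishes. Total RNA was depleted of ribosomal RNA and sequenced, and each library held between 6738478 and 8382318 reads counted in genes.

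The targeted gene was examined first. Cmtr1 was at 21.3, 21.7 and 17.9 CPM in control, at 21.1, 21.3, 16.2 and 18.0 CPM with siRNA 1, and at 15.6, 16.8, 16.4 and 19.5 CPM with siRNA 2. The groups overlapped, and 3 of the 4 siRNA 2 libraries lay below every control library. The log2 fold change was -0.09 ± 0.11 (SE) with siRNA 1 and -0.25 ± 0.11 with siRNA 2, and neither passed edgeR's quasi-likelihood test after Benjamini-Hochberg adjustment over all genes tested (adjusted p = 0.743 and 0.144). When each library was left out, the siRNA 1 value ran from -0.17 without control library 3 to -0.02 without siRNA 1 library 3, and the siRNA 2 value from -0.33 to -0.20. Of the exonic bases of Cmtr1, 36.3% also belong to Gm28043 or Gm28052 on the same strand, 47.2% lie opposite Ccdc167, and 32.5% of its 75-nt words, the read length, occur in other genes, so its count is uncertain. The groups are therefore named by the siRNA they received.

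Genes with an adjusted p (false discovery rate, FDR) of at most 0.05 are termed called, and their share of all genes tested is given here as background. With siRNA 1 against control, 751 of 16073 genes tested were called (4.67%), 316 of them lower (1.97%) and 435 higher (2.71%). With siRNA 2 against control, 1562 were called (9.72%), 571 lower (3.55%) and 991 higher (6.17%). Between siRNA 2 and siRNA 1, 1196 were called (7.44%), with 475 lower (2.96%) and 721 higher (4.49%) in siRNA 2. The balance of directions depended on the scaling, since TMM factors gave 400 lower and 346 higher with siRNA 1 and 734 lower and 728 higher with siRNA 2, and DESeq2 gave 322 lower and 199 higher, and 549 lower and 409 higher. With siRNA 1 the count was 355 without control library 2, 447 without control library 3 and 424 without siRNA 1 library 2. With siRNA 2 it was 914 without control library 2, 807 without control library 3 and 1015 without siRNA 2 library 1, and 958 with DESeq2. Between the siRNAs it was 738 without siRNA 1 library 1, 724 without siRNA 1 library 2 and 757 without siRNA 2 library 1, and 740.0 with DESeq2. Both siRNA groups were compared with the same 3 control libraries. The labels do not say whether libraries of a group came from separate cultures, so the p-values measure the spread between these libraries, which may be technical. The methods of the paper speak of biological replicates, in a number that does not match the libraries of the siRNA groups here.

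All 7 members passed the filter on low counts, which kept genes above 1 CPM in at least 4 libraries. Per kilobase of exon, Tdgf1 had the highest level in control, at 110.0 ± 8.45 CPM per kb (SD, n = 3), above 98.1% of the genes with a length among those tested. Lefty1 came next at 47.9 ± 2.09 CPM per kb, followed by Skil at 28.2 ± 1.47. Nodal at 23.4 ± 1.40 and Acvr2b at 22.4 ± 0.830 CPM per kb were neighbours whose spreads over the control libraries overlapped. Smad7 was at 15.4 ± 0.992 and Lefty2, the lowest, at 8.84 ± 1.52 CPM per kb, which still exceeded 65.2% of the genes tested. This order of the 7 levels was the same in each of the 11 libraries. The reads per member and library ranged from 84 (Lefty2) to 2518 (Skil).

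**Figure D1:**
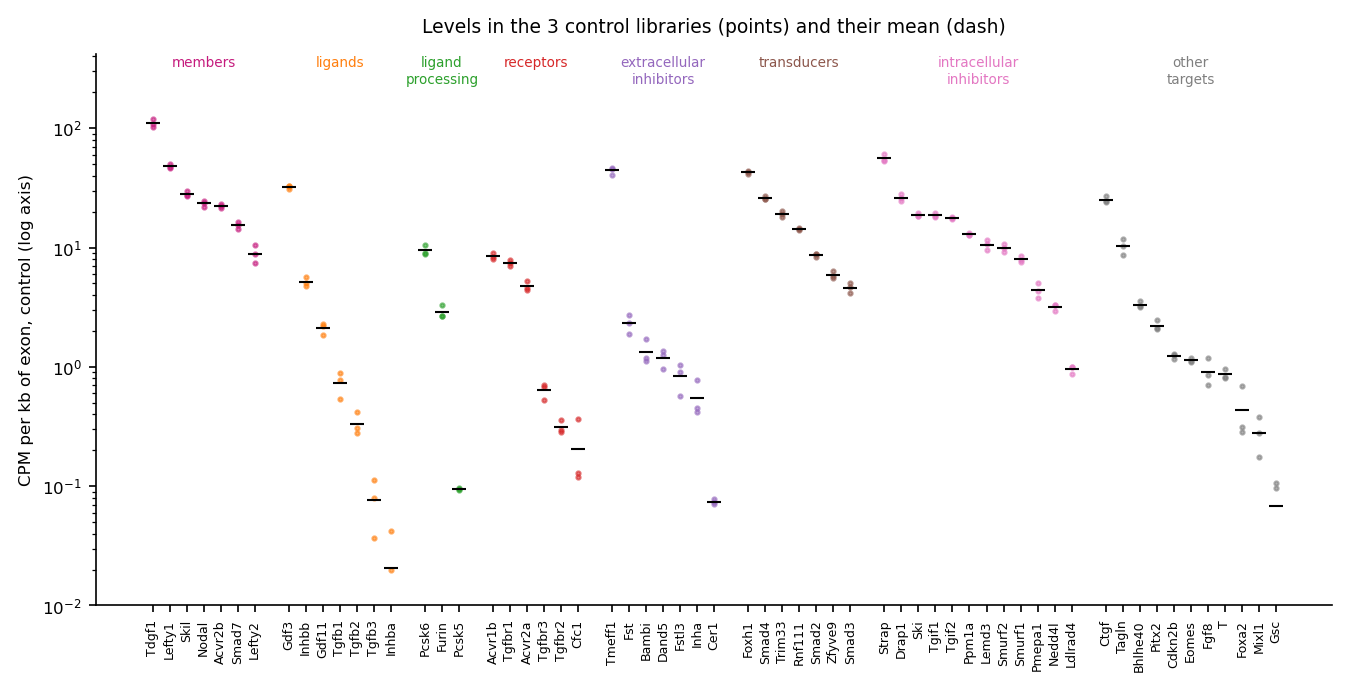
Levels in the 3 control libraries, in CPM per kb of exon on a log axis, for the 7 members and the other genes of the pathway list grouped by role. Points are libraries and dashes are means, and libraries at 0 as well as Gdf1 and Acvr1c, at 0 in all control libraries, cannot be drawn. Tdgf1 stands highest at 110.0 CPM per kb and Lefty2 lowest of the members at 8.84.

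Nodal, the ligand, lies on chromosome 10 of GRCm38 (chr10:61417972-61425338, plus strand). In control it was at 49.6, 45.9 and 51.7 CPM. With siRNA 1 it was at 52.1, 53.8, 52.3 and 51.7 CPM, and with siRNA 2 at 52.0, 56.8, 56.5 and 52.0 CPM. The siRNA libraries were the higher ones, but the lowest siRNA 1 library and the highest control library were both at 51.7 CPM to 3 digits. The log2 fold change was 0.10 ± 0.07 (SE) with siRNA 1 and 0.15 ± 0.07 with siRNA 2, and the difference between the siRNAs, 0.05 ± 0.06, was the smallest in size among the 7 members. The siRNA 1 value was 0.05 without control library 2, and the difference between the siRNAs was 0.03 without siRNA 2 library 2 or 3.

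Tdgf1, the co-receptor (chr9:110939603-110946158, minus strand), was at 313, 282 and 270.3 CPM in control. It was at 236, 264, 270.4 and 269 CPM with siRNA 1, and at 284, 292, 277 and 289.8 CPM with siRNA 2. Of the siRNA 1 libraries, 3 were below every control library and the other lay within the control range, while every siRNA 2 library was above every siRNA 1 library. Tdgf1 had a log2 fold change of -0.15 ± 0.05 with siRNA 1, -0.01 ± 0.05 with siRNA 2 and 0.14 ± 0.05 for siRNA 2 against siRNA 1. Without control library 1, the siRNA 1 value was -0.09 and the siRNA 2 value 0.05. A pseudogene, Tdgf1-ps1, shares 5.99% of the 75-nt words of Tdgf1.

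Acvr2b, a type II receptor for activins and Nodal (chr9:119402118-119434995, plus strand), was at 88.0, 84.7 and 91.3 CPM in control. The values were 84.1, 87.5, 83.9 and 74.98 CPM with siRNA 1, and 72.2, 86.4, 72.5 and 73.2 CPM with siRNA 2. In each siRNA group, library 2 lay inside the control range and the other 3 libraries were below every control library. Against control, Acvr2b differed by -0.21 ± 0.06 on the log2 scale for siRNA 2 and by -0.09 ± 0.06 for siRNA 1 (-0.05 without siRNA 1 library 4). Between the siRNAs the value was -0.12 ± 0.06, and the groups overlapped.

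Promoter sequence from RefSeq (GRCm38.p6) was matched for 3 of the 7 members, Nodal, Tdgf1 and Acvr2b, and not for Lefty1, Lefty2, Smad7 and Skil. The bases before the start are shown for these 3 because they are the members with a match, and they encode the ligand, its co-receptor and a receptor. Each is written 5′ to 3′ on the strand of its gene, and capitals mark matches, on either strand, to CAGAC (a SMAD-binding letter string) or AATNNACA (a FOXH1-binding one). The positions are chr10:61417722-61417971 (plus) for Nodal, chr9:110946159-110946408 (minus) for Tdgf1 and chr9:119401928-119402117 (plus) for Acvr2b.
Nodal: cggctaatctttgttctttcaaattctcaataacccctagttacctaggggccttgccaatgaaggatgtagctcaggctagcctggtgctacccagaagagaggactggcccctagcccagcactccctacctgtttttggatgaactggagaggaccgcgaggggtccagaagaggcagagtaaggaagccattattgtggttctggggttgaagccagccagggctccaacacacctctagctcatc
Tdgf1: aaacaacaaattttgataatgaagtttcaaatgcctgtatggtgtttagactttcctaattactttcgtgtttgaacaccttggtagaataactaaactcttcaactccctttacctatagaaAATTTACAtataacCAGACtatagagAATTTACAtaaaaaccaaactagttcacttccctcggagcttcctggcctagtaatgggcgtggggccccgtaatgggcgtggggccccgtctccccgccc
Acvr2b: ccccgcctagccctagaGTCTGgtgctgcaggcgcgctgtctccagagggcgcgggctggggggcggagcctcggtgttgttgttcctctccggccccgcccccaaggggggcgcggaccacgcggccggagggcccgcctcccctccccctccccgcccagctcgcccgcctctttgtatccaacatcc

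The 250 bases of Tdgf1 held AATTTACA at 127 and at 101 bases before the start, with CAGAC between them at 113. The 250 bases of Nodal held neither string. The sequence of Acvr2b is shorter, 190.0 bases, and held 1 CAGAC match, so the shares below do not compare with it directly. Over the first 250 bases of all 32851 promoter windows, 42.19% held CAGAC and 10.93% held AATNNACA. CAGAC with 2 or more AATNNACA matches, as in Tdgf1, was in 0.40%. This combination was taken from what the Tdgf1 window holds, so nothing is read from its share. The palindrome GTCTAGAC, also bound by SMADs, was in 0.17% of windows and in none of these 3. A match describes letters and is not a measured binding site.

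Lefty1 and Lefty2, the secreted Nodal antagonists and classic targets of the pathway, showed the widest differences among the 7 members with siRNA 1 against control and between the siRNAs, though not with siRNA 2 against control. They are neighbours on chromosome 1 (Lefty1 at chr1:180935022-180938400 and Lefty2 at chr1:180893108-180899103, both on the plus strand), and their coding sequences, taken from GENCODE M21 transcripts on GRCm38, are much alike. Each has 4 coding exons of matching lengths, and 90 of the 1104 coding bases differ (91.8% identical), so some reads may not be told apart. In coding exon 3 only 5 of 246 bases differ (98.0% identical), whereas in coding exon 1 the count is 56 of 250 (77.6%).

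Over the whole genes, 11.7% of the 75-nt words of Lefty1 and 7.77% of those of Lefty2 occur in the other gene, and reads confined to such words could not be assigned to either with certainty. No exon of any of the 7 members overlaps an exon of another gene on either strand.

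Lefty2 was at 22.9, 19.2 and 27.2 CPM in control. It was at 12.5, 12.1, 14.9 and 16.0 CPM with siRNA 1, and at 19.5, 18.0, 22.2 and 22.2 CPM with siRNA 2. All 4 siRNA 1 libraries were below all control libraries and below all siRNA 2 libraries, and siRNA 2 overlapped control. The group means were 23.1 ± 3.98 (SD, n = 3), 13.9 ± 1.91 (n = 4) and 20.5 ± 2.10 CPM (n = 4). The log2 fold change was -0.73 ± 0.12 (SE) with siRNA 1, -0.17 ± 0.11 with siRNA 2, and 0.56 ± 0.11 for siRNA 2 against siRNA 1. The siRNA 2 value was -0.04 without control library 3 and -0.29 without control library 2. These values rest on 84 to 202 reads per library, the fewest of any member. In these bulk libraries, fewer cells of a type and less RNA per cell cannot be told apart.

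Lefty1 was at 88.4, 82.4 and 81.7 CPM in control. It was at 60.7, 54.3, 76.2 and 71.5 CPM with siRNA 1, and at 66.8, 78.5, 91.4 and 84.7 CPM with siRNA 2. The siRNA 1 libraries were all below control but spread widely, and 3 of the 4 siRNA 2 libraries were above every siRNA 1 library. For Lefty1 the log2 fold change was -0.36 ± 0.08 with siRNA 1, -0.07 ± 0.08 with siRNA 2, and 0.29 ± 0.08 between the siRNAs. The siRNA 2 value was 0.01 without siRNA 2 library 1, -0.03 without control library 1 and -0.13 without siRNA 2 library 3. Within a group, Lefty1 varied with a coefficient of variation of 4.36% in control, 15.2% with siRNA 1 and 13.0% with siRNA 2.

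Summing the pair removes any exchange of reads between them. The sum was 111, 102 and 109 CPM in control, 73.2, 66.4, 91.1 and 87.5 CPM with siRNA 1, and 86.2, 96.5, 114 and 107 CPM with siRNA 2. The siRNA 1 libraries remained below the control libraries, and siRNA 2 overlapped both groups. Per kb of exon, Lefty1 exceeded Lefty2 by 5.52 ± 0.967 times in control (SD, n = 3), 7.03 ± 0.462 times with siRNA 1 (n = 4) and 5.83 ± 0.593 times with siRNA 2 (n = 4). The ratio was above the control range in each siRNA 1 library, from 6.62 to 7.58 against 4.46 to 6.36.

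**Figure D2:**
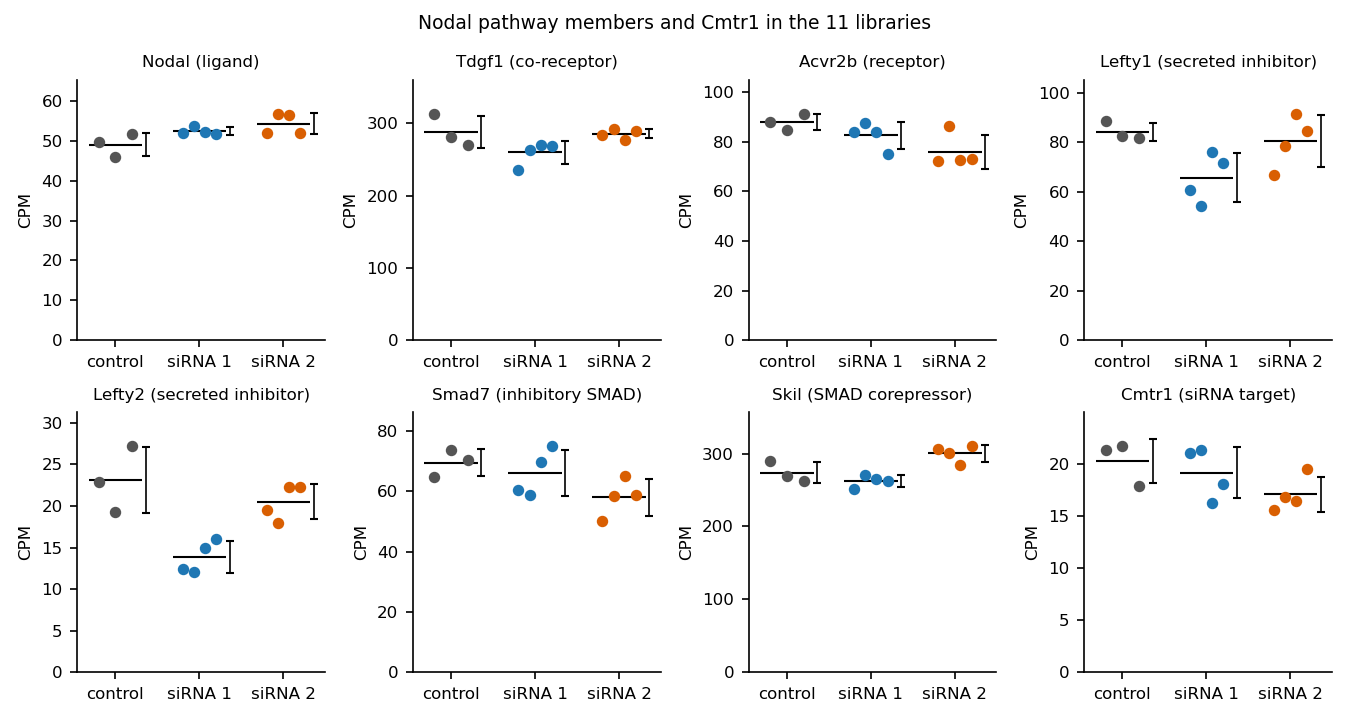
CPM of the 7 members and of Cmtr1 in each library (points) of control, siRNA 1 and siRNA 2, with the group mean (line) and SD (bar) and axes from 0. The siRNA 1 points of Lefty1 and Lefty2 lie below the control points, at 54.3 to 76.2 and 12.1 to 16.0 CPM.

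Smad7, an inhibitory SMAD that blocks activated receptors and is induced by TGF-beta family signals (chr18:75367529-75395935, plus strand), was at 64.8, 73.6 and 70.3 CPM in control. It was at 60.5, 58.7, 69.9 and 74.98 CPM with siRNA 1, and at 50.1, 58.3, 65.0 and 58.8 CPM with siRNA 2. The siRNA 1 libraries straddled the control range, with the highest value of all 11, while 3 of the 4 siRNA 2 libraries were below it. Against control, Smad7 differed by -0.26 ± 0.07 on the log2 scale for siRNA 2 and by -0.08 ± 0.07 for siRNA 1, which ran from -0.14 to -0.02 when each library was left out. Between the siRNAs the value was -0.18 ± 0.07, and the groups overlapped. Smad7 was thus lowest in mean with siRNA 2, while Lefty1 and Lefty2 were lowest in mean with siRNA 1.

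Skil, whose product SnoN binds SMAD complexes and represses their targets (chr3:31095058-31122577, plus strand), was at 289.7, 269.5 and 262 CPM in control. It was at 251, 269.9, 265 and 262 CPM with siRNA 1, and at 306, 300.4, 284 and 310.1 CPM with siRNA 2. Every siRNA 2 library was above every siRNA 1 library, with 3 of 4 above all control libraries, and siRNA 1 was at or below the middle of the control range. Skil had a log2 fold change of -0.06 ± 0.05 with siRNA 1, 0.13 ± 0.05 with siRNA 2 and 0.20 ± 0.04 between them. Without control library 1 the siRNA 1 value was -0.02.

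Taken over the 7 members, with siRNA 1 against control, 6 of 7 log2 fold changes were below 0, with a median of -0.09 beside 0.02 over all genes, of which 43.2% were below 0, and the median was -0.14 without siRNA 1 library 4. The 2 called, Lefty1 and Lefty2, stand beside 4.67% of all genes, and the 3 whose libraries did not overlap control, Nodal, Lefty1 and Lefty2, beside 15.5%. With siRNA 2 against control, 5 of 7 were below 0, with a median of -0.07 beside 0.03 over all genes. That median was -0.03 without control library 1, -0.01 without siRNA 2 library 1 and -0.13 without siRNA 2 library 3, and Tdgf1 or Lefty1 turned above 0 without control library 1 or siRNA 2 library 1 or 3. Here 2 were called, Acvr2b and Smad7, beside 9.72%, and Nodal alone did not overlap control, beside 19.4%. Between the siRNAs, 3 were called higher in siRNA 2, Lefty1, Lefty2 and Skil, beside 4.49% of all genes (7.44% in either direction). Tdgf1, Lefty2 and Skil did not overlap between the siRNAs, beside 11.8%. Without siRNA 1 library 2, 1 member was called with siRNA 1. With siRNA 2, 1 was called without control library 2 or siRNA 2 library 4, and 0 without control library 3 or siRNA 2 library 1. Between the siRNAs, 2 were called with DESeq2 and without siRNA 1 library 2. Nothing is read from these counts, because the genes were selected on the same contrasts.

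**Figure D3:**
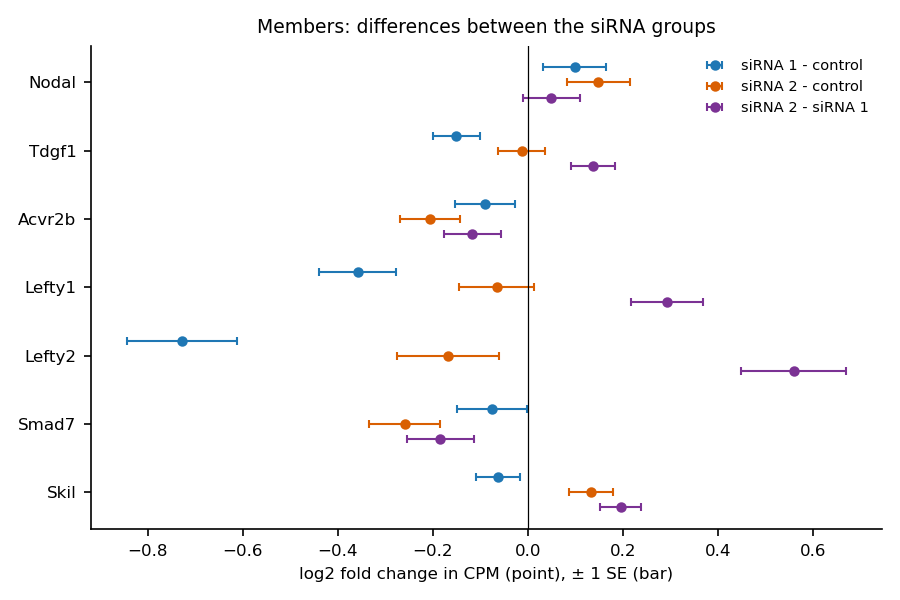
Log2 fold changes of the 7 members (points) with 1 SE (bars) for siRNA 1 against control, siRNA 2 against control and siRNA 2 against siRNA 1. Lefty2 is at -0.73 with siRNA 1 and at -0.17 with siRNA 2, and Skil has opposite signs against control, -0.06 and 0.13.

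Over the 11 libraries, log2 CPM of Lefty1 and Lefty2 had a Pearson r of 0.828, the highest of the 21 pairs of members, followed by Tdgf1 and Skil at 0.755. After the group means were taken out, these were 0.600 and 0.834. Of the 21 pairs, 11 were below 0, the lowest being Smad7 and Skil at -0.625 (-0.402 within groups) and Acvr2b and Skil at -0.442 (0.032 within groups). Lefty1 and Smad7 had an r of 0.373 over all libraries and 0.822 within groups. Nodal had an r of -0.114 with Lefty1 and -0.131 with Lefty2, and of 0.094 and 0.243 within groups. Such values describe 11 libraries in 3 groups, and part of the first set comes from the differences between groups.

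Among 10916 genes with a mean log2 CPM of at least 2, those whose pattern over the 11 libraries was most like the mean of Lefty1 and Lefty2 were Tmem64 (Pearson r = 0.942), Slc20a1 (0.925), Grhl2 (0.923), Slc44a1 (0.921), Kctd9 (0.911), Nus1 (0.901), Ndrg3 (0.897), Aplp1 (0.892), Chd4 (0.891) and Adam9 (0.888). The mean of Tmem64 was 76.6 CPM in control, 51.3 with siRNA 1 and 75.1 with siRNA 2, and these genes were picked for sharing the Lefty pattern. With the group means taken out, r for these 10 genes ranged from 0.634 (Ndrg3) to 0.878 (Slc44a1). The 5 genes most like Nodal were Nckap5l (r = 0.915), Klhl22 (0.912), Maip1 (0.910), Tpm2 (0.902) and Lrrc14 (0.898).

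The rest of the pathway was read from a list of 55 other genes by role, of which 46 were tested. Of the 9 below the filter, Gdf1 had no read in any library, and Inhba, Tgfb3, Acvr1c, Cfc1, Cer1, Gsc, Mixl1 and Foxa2 had between 0 and 13 reads per library. With siRNA 1 against control, 2 of 46 genes passed the test, both lower (4.35%, beside 4.67% of all genes). With siRNA 2, 6 of 46 passed, 4 lower and 2 higher (13.0%, beside 9.72%). Between the siRNAs, 5 of 46 passed, 2 lower and 3 higher in siRNA 2 (10.9%, beside 7.44%). The median log2 fold change of the 46 was 0.03, 0.02 and -0.02 in these comparisons, beside 0.02, 0.03 and 0.00 over all genes. With siRNA 1 the count was 5 with TMM factors, 4 without control library 1 and 1 without control library 3. Between the siRNAs it was 3 with DESeq2, without siRNA 1 library 2 and without siRNA 2 library 1, and 2 without siRNA 1 library 1.

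Among the ligands, Inhbb fell with each siRNA. It encodes the beta B subunit of activins and inhibins, and activin B signals through the same receptor SMADs as Nodal. Inhbb was at 20.4, 21.6 and 24.0 CPM in control, at 15.3, 11.1, 13.6 and 15.6 CPM with siRNA 1, and at 11.5, 13.1, 13.1 and 12.7 CPM with siRNA 2. All 8 siRNA libraries were below all 3 control libraries. The log2 fold change was -0.67 ± 0.11 with siRNA 1 (edgeR adjusted p = 7.09e-05) and -0.80 ± 0.11 with siRNA 2 (adjusted p = 1.89e-06), and the siRNAs did not differ from each other by the same test (-0.13 ± 0.11, adjusted p = 0.558). Gdf3, a Nodal-related ligand and the most abundant per kb on the ligand list (32.3 ± 0.978 CPM per kb, SD, n = 3), was at 75.6 to 80.0 CPM in control and at 80.2 to 89.8 CPM in the siRNA libraries, and passed in neither comparison with control (adjusted p = 0.435 and 0.256).

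Pcsk6, or PACE4, a convertase that cleaves the Nodal precursor and the most abundant of the 3 processing genes (9.46 ± 0.954 CPM per kb), was at 45.8, 46.6 and 54.8 CPM in control. It was at 43.9, 36.4, 42.7 and 42.9 CPM with siRNA 1, and at 35.8, 35.9, 42.3 and 40.0 CPM with siRNA 2. No siRNA library reached the control range. Pcsk6 fell by 0.35 on the log2 scale with siRNA 2 (SE 0.08, edgeR adjusted p = 0.00219), but without control library 3 its adjusted p was 0.0585 (range over all settings tried, 0.000294 to 0.0585). With siRNA 1 the value was -0.24 ± 0.08 (adjusted p = 0.0556).

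Of the receptors, the type I receptor gene Acvr1b (ALK4), the most abundant of the list at 8.43 ± 0.442 CPM per kb, had log2 fold changes of 0.11 ± 0.07 and -0.02 ± 0.08 (edgeR adjusted p = 0.501 and 0.915). Tgfbr3, a co-receptor for TGF-beta and inhibins, was at 4.57, 3.45 and 4.44 CPM in control and at 7.95, 6.80, 6.47 and 5.80 CPM with siRNA 2, above every control library. It rose by 0.70 ± 0.18 on the log2 scale with siRNA 2 (adjusted p = 0.00755), and its adjusted p was 0.0786 without control library 2 (range 0.00300 to 0.0786). With siRNA 1 its log2 fold change was 0.30 ± 0.19 (adjusted p = 0.449). Tgfbr3 is a low gene, with 28 to 57 reads per library. Of the secreted and membrane inhibitors other than the Lefty genes, Tmeff1, a membrane protein that binds Cripto, was by far the most abundant at 44.4 ± 3.28 CPM per kb. Tmeff1 fell with siRNA 2 by 0.22 (SE 0.06, adjusted p = 0.00691), from 113 ± 8.37 CPM in control (SD, n = 3) to 96.9 ± 5.26 (n = 4). Its adjusted p was 0.0581 without control library 2 and 0.0811 without control library 3 (range 0.00188 to 0.0811). With siRNA 1 its log2 fold change was -0.16 ± 0.06 (adjusted p = 0.0895), and all 4 libraries were below every control library. The siRNAs did not differ by the same test (-0.06 ± 0.05, adjusted p = 0.562).

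Of the 7 transducers, 0 passed edgeR's quasi-likelihood test against control with either siRNA. At an unadjusted p under 0.05 there were 2 with siRNA 1 and 4 with siRNA 2, and edgeR's exact test and DESeq2 each called 0. No share of all genes at this unadjusted threshold is given, so nothing is read from such counts, here or below. Foxh1, the DNA-binding partner of SMAD2 and SMAD3, was the most abundant per kb (42.7 ± 1.58), at 56.0 to 60.3 CPM in control and 60.7 to 70.9 CPM in the siRNA libraries (log2 fold change 0.11 ± 0.06 and 0.17 ± 0.06, adjusted p = 0.388 and 0.0677). Between the siRNAs, Smad4, the shared partner of the receptor SMADs, was higher in siRNA 2 by 0.18 ± 0.05 (adjusted p = 0.0311). It was at 79.1, 91.9, 86.6 and 85.9 CPM with siRNA 1, at 99.6, 94.7, 101 and 93.8 CPM with siRNA 2, and at 95.2, 94.5 and 101 CPM in control. Smad4 was thus at control level with siRNA 2 and below every control library with siRNA 1. Its call between the siRNAs was lost with DESeq2 (adjusted p = 0.0644) and without siRNA 1 library 1 or 4 (0.147 and 0.0677) or siRNA 2 library 1 or 3 (0.0900 and 0.0719), in a range of 0.0233 to 0.147. Zfyve9 (SARA), an anchor that presents SMADs to the receptor, was lower in siRNA 2 than in siRNA 1 by a log2 difference of -0.29 ± 0.07 (adjusted p = 0.00636). Against control its log2 fold change was -0.21 ± 0.08 with siRNA 2 (adjusted p = 0.0627), with all 4 libraries below control. With siRNA 1 it was 0.07 ± 0.07 (adjusted p = 0.675).

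Among the intracellular inhibitors, Pmepa1, a transmembrane SMAD antagonist and known TGF-beta target, fell with each siRNA. It was at 18.4, 21.3 and 24.8 CPM in control, at 14.2, 15.7, 16.2 and 16.4 CPM with siRNA 1, and at 14.3, 14.7, 15.2 and 14.7 CPM with siRNA 2. Again all 8 siRNA libraries were below the controls. For Pmepa1 the log2 fold change was -0.45 ± 0.10 with siRNA 1 (edgeR adjusted p = 0.00492) and -0.54 ± 0.10 with siRNA 2 (adjusted p = 0.000391), and without control library 3 the adjusted p with siRNA 1 was 0.0998 (range 0.00142 to 0.0998). Nedd4l, a ubiquitin ligase for activated SMADs, rose with siRNA 2 by 0.23 ± 0.06 (adjusted p = 0.0133) and was higher in siRNA 2 than in siRNA 1 by 0.24 ± 0.06 (adjusted p = 0.00611). The first of these was lost with DESeq2 (adjusted p = 0.0713) and without control library 1 (0.111), in a range of 0.00818 to 0.111. Drap1, a transcriptional corepressor that restrains FOXH1, was lower in siRNA 2 than in siRNA 1 (-0.21 ± 0.07, adjusted p = 0.0433). The Drap1 call was lost under 9 of 19 other settings, with DESeq2 (0.0901), with no filter on low counts (0.0568), without control library 2 (0.0512), without siRNA 1 library 1 or 2 (0.228 and 0.0939) and without siRNA 2 library 1, 2, 3 or 4 (0.0756, 0.0716, 0.0871 and 0.0659), in a range of 0.0302 to 0.228. The most abundant of this list was Strap, a receptor-associated adaptor (56.1 ± 4.02 CPM per kb), with log2 fold changes of -0.02 ± 0.05 and 0.13 ± 0.05 against control (adjusted p = 0.895 and 0.124).

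Of the 8 other targets tested, 0 passed edgeR's quasi-likelihood test against control with either siRNA. At an unadjusted p under 0.05 there was 1 with siRNA 1 and 3 with siRNA 2, and edgeR's exact test and DESeq2 each called 0. Ctgf, a matricellular TGF-beta target, was the most abundant at 25.2 ± 1.55 CPM per kb, and was higher in siRNA 2 than in siRNA 1 by 0.21 ± 0.06 (adjusted p = 0.0155). The Ctgf call was lost without siRNA 1 library 1 or 2 (adjusted p = 0.0712 and 0.0575, range 0.00953 to 0.0712).

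**Figure D4:**
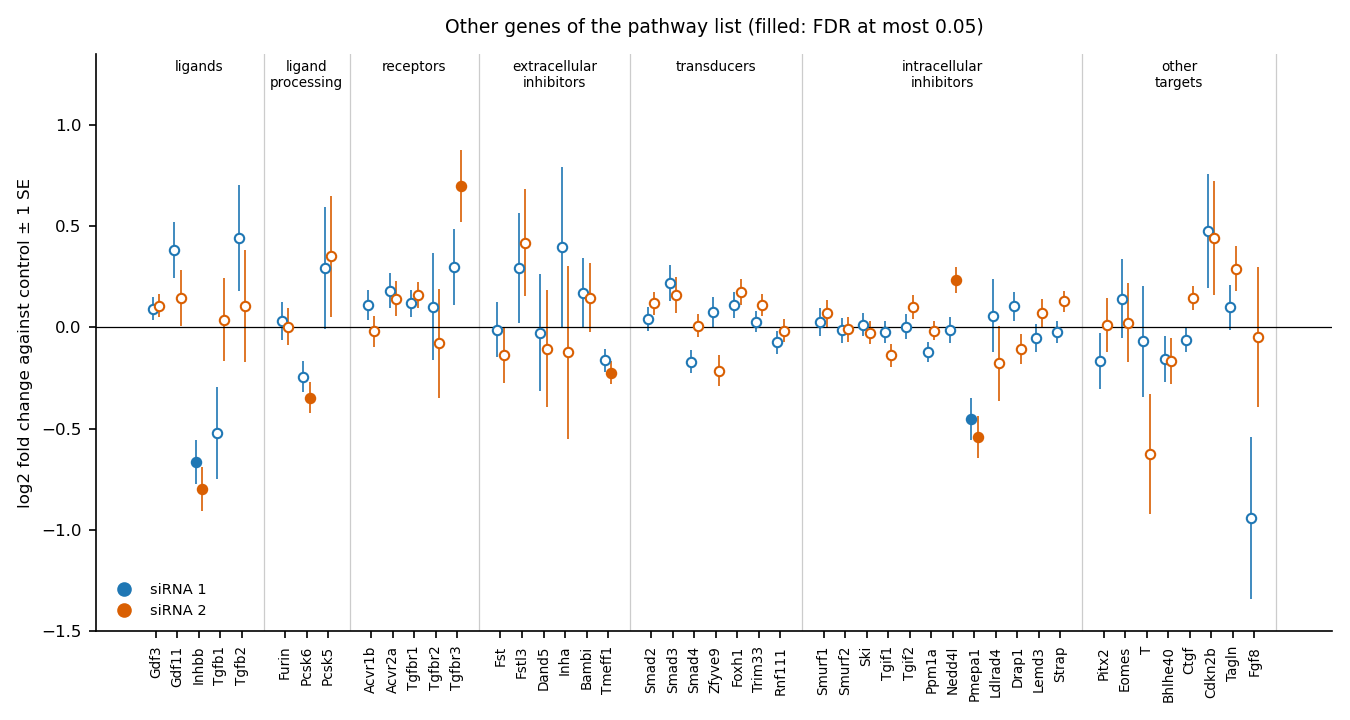
Log2 fold changes against control (points) with 1 SE (bars) of the 46 tested genes of the pathway list by role, for siRNA 1 and siRNA 2, which share their controls. Filled points passed an FDR of 0.05, and Inhbb and Pmepa1 are filled for each siRNA, at -0.67 and -0.80 and at -0.45 and -0.54.

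Marker lists describe the cells in which these levels were measured. The 10 pluripotency markers were all tested, led per kb by Dppa5a (409 ± 6.83 CPM per kb in control, SD, n = 3), and none of the markers on any list was at 0 in all libraries. Their summed level was 2236, 2425 and 2363 CPM in control, 2032, 2080.4, 2188 and 2142 CPM with siRNA 1, and 2086, 2136, 2047 and 2108 CPM with siRNA 2. All 8 siRNA libraries were below the controls. With siRNA 1, 7 of 10 markers passed as lower (6 called with DESeq2), beside 1.97% of all genes. With siRNA 2 it was 5 of 10 (5 with DESeq2), beside 3.55%. The part of this shift in the Lefty values was not tested.

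Of 5 primed-state markers, 1 passed higher with siRNA 1 (1 called with DESeq2), beside 2.71% of all genes. With siRNA 2, 2 of these markers passed higher and 1 lower (2 called with DESeq2), beside 6.17% and 3.55%. Their sum, led by Dnmt3b (129 ± 1.89 CPM per kb), was 965, 944 and 936 CPM in control, 975, 1019, 976 and 962 CPM with siRNA 1, and 935, 1004, 896 and 933 CPM with siRNA 2. The mesendoderm list, whose formation Nodal drives in the embryo, was near the floor of detection, with 2 of 6 genes tested, sums between 6.25 and 9.60 CPM and Eomes the most abundant per kb at 1.14 ± 0.0464 CPM per kb. The 6 primitive endoderm markers, led by Dab2, had sums of 50.5 to 72.2 CPM, and the 6 trophoblast markers, of which 5 were tested, led by Krt18, 32.2 to 46.9 CPM. On these 3 lists edgeR's quasi-likelihood test called 0 genes against control with either siRNA, beside 4.67% and 9.72% of all genes. Its exact test and DESeq2 also called 0. At an unadjusted p under 0.05 there were 0 and 1 mesendoderm genes, 0 and 0 primitive endoderm genes and 1 and 1 trophoblast genes with siRNA 1 and siRNA 2. Between the siRNAs, edgeR's quasi-likelihood test called 1 trophoblast gene, Krt8, higher in siRNA 2 (0.38 ± 0.10, adjusted p = 0.0139), beside 4.49% of all genes. Its exact test and DESeq2 also called 1 trophoblast gene each, and the mesendoderm and primitive endoderm lists had 0 by each tool. The neural list was led by Tubb3. Of its 4 markers tested, 1 passed higher with each siRNA (0 and 1 with DESeq2), beside 2.71% and 6.17% of all genes. Their sum was 152, 151 and 152 CPM in control, 185, 179, 164 and 163 CPM with siRNA 1, and 177, 191, 164 and 159.8 CPM with siRNA 2. All 8 siRNA libraries were above the controls in this sum, but the genes did not move alike. Their median log2 fold change was 0.26 with siRNA 1 and 0.02 with siRNA 2. Between the siRNAs, 1 passed higher and 1 lower, beside 4.49% and 2.96% of all genes. The part of this in the member values was not tested.

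With siRNA 2, genes of the remaining lists also moved. The rare state that resembles early cleavage embryos had 6 markers, led by Zscan4d. Of these, 4 passed higher with siRNA 2 (1 with DESeq2), beside 6.17% of all genes. With siRNA 1, 0 of the markers passed higher, beside 2.71% (0 at an unadjusted p under 0.05, by edgeR's exact test and by DESeq2). Their sum was 18.7, 18.6 and 17.4 CPM in control, 18.6, 19.4, 21.1 and 16.7 CPM with siRNA 1 and 32.8, 29.0, 28.7 and 29.8 CPM with siRNA 2. Of 5 fibroblast markers tested, led by Col1a1, 2 passed higher and 1 lower with siRNA 2 (1 called with DESeq2). The shares of all genes were 6.17% higher and 3.55% lower. The list had sums of 27.8, 23.3 and 27.6 CPM in control, 28.5, 27.9, 27.1 and 24.7 CPM with siRNA 1 and 34.1, 38.9, 34.2 and 38.9 CPM with siRNA 2. These sums were higher in all 4 siRNA 2 libraries than in the other 7, as was Tgfbr3, and their part in that value was not tested.

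**Figure D5:**
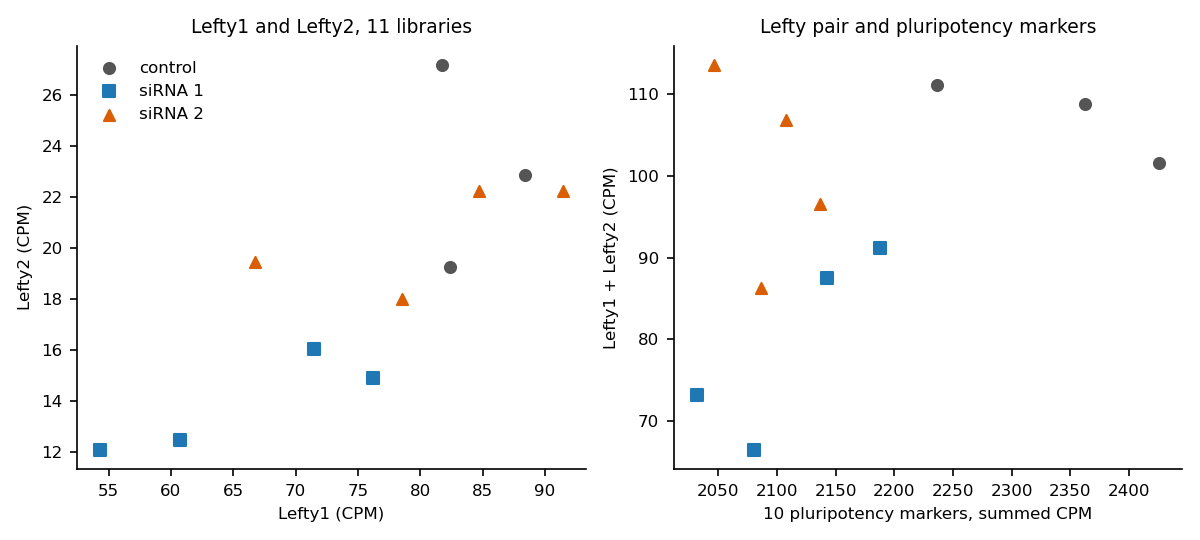
Lefty2 against Lefty1 in CPM (left) and the summed CPM of the Lefty pair against that of 10 pluripotency markers (right), 1 point a library, with axes not starting at 0. The siRNA 1 libraries lie lowest for Lefty2, at 12.1 to 16.0 CPM, and at right all siRNA libraries are below the 2236 CPM of the lowest control library.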

How the data were processed

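The deposited files hold count values, raw reads per Ensembl gene, for 11 libraries of rRNA-depleted, strand-directional total RNA. Per the submitters' processing notes, the authors used FastQC, cutadapt, STAR on GRCm38, Picard and featureCounts, with no versions given. The summary lines in the files have the layout of HTSeq-count, a tool the notes do not name. PCR duplicates were removed and no molecular identifiers were used, so counting error covers only part of the technical spread. Whether counting used the strand is not stated. Summary lines in 10 of the 11 files were set aside (per library 5314618 to 6998875 reads in no feature, 137308 to 164565 ambiguous, 787556 to 974693 aligned to more than 1 place), and libraries held 6738478 to 8382318 counted reads.

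Of 54838 identifiers, 54809 matched GRCm38 symbols. Genes above 1 CPM in at least 4 libraries (16073) were compared with edgeR 4.0.16 (quasi-likelihood F test, library totals as scaling, Benjamini-Hochberg) in R 4.3.3 with limma 3.58.1, after the fit was tested on simulated data. Log2 fold changes carry the SE from the fit, and CPM carries the SD over libraries. Alternatives were TMM factors, DESeq2 1.42.0, edgeR's exact test, no filter on low counts, a minimum of 5 CPM, library totals without Gm26917 (4.86 to 6.34% of counted reads), 2 groups only, a replicate block and leaving out each library. Tables and figures used Python 3.11.15, numpy 2.4.6, pandas 2.3.3 and matplotlib 3.10.9. Genes named from the pathway list are those called in a comparison and the most abundant of each role. From the marker lists the most abundant of each is named, and Krt8, called between the siRNAs. Other called markers that are not the most abundant of their list are counted but not named. The members and all lists were chosen with earlier results of these data known, and 1 gene planned for the pathway list was left out of it for a reason other than its values and is not reported here, so counts over the list are without it.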

Additional observations from a re-analysis of the deposited data

Results flagged for a closer look

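In each group of 4 libraries, the gap between the highest or lowest library and its nearest neighbour was divided by the range of the group. Of 60 groups checked, 2 exceeded Dixon's 95% critical value, where chance flags about 1 in 20 groups (5%). Acvr2b was at 86.4 CPM in siRNA 2 library 2, against 72.2 to 73.2 CPM in the other 3 (ratio 0.925). Pcsk6 was at 36.4 CPM in siRNA 1 library 2, against 42.7 to 43.9 CPM in the other 3 (ratio 0.832).

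Other genes stood out by a difference between the siRNAs with opposite signs of the log2 fold change against control. Lefty2 (0.56) and Lefty1 (0.29) also differed between the siRNAs. They were below control in mean with each siRNA, so they are not listed here. For Skil, every siRNA 1 library was below the control mean and every siRNA 2 library above it, with a log2 difference of 0.20. The fit over all genes calls Skil here, but it was chosen on this comparison, so the value is a description and no p is given. By edgeR's quasi-likelihood test of siRNA 2 against siRNA 1, the log2 difference was 0.18 for Smad4, -0.29 for Zfyve9, 0.24 for Nedd4l, -0.21 for Drap1 and 0.21 for Ctgf. Against control, Smad4 was at 0.008 ± 0.056 (SE) with siRNA 2 and Nedd4l at -0.012 ± 0.065 with siRNA 1. These signs are within the SE, so no opposite movement is read for Smad4 and Nedd4l. The calls of Smad4, Drap1 and Ctgf were each lost under some settings, as given above.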

How the results depend on the processing

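With siRNA 1 against control, 751 genes were called, and 355 to 850.0 when each library was left out. Members called were 2 (1 to 3 leaving out each library), and other pathway genes 2 (1 to 4), with 5 under TMM factors and 4 with the replicate number as a block. With siRNA 2, 1562 genes were called, 958 with DESeq2 and 807 to 1667 leaving out each library. Members called were 2, 1 with the block and 0 to 2 leaving out each library. Between the siRNAs, 1196 genes were called, 740.0 with DESeq2 and 724 to 1374 leaving out each library. Members called were 3, 2 with DESeq2 and 2 to 4 leaving out each library, and other pathway genes called were 5, 3 with DESeq2 and 2 to 6 leaving out each library. The cause was not tested. With the block the genes called were 840.0, 1486 and 1242.

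For 13 other tested fold changes, 247 values were computed under the alternatives, of which 224 kept the call and 23 lost it, with 0 changes of sign. Of 456 values for 24 fold changes or medians of the members, 3 changed sign. When each library was left out, with siRNA 2 Tdgf1 ran from -0.06 to 0.05, Lefty1 from -0.13 to 0.01 and Lefty2 from -0.29 to -0.04. With siRNA 1 Nodal ran from 0.05 to 0.14, Tdgf1 from -0.19 to -0.09, Acvr2b from -0.12 to -0.05, Smad7 from -0.14 to -0.02 and Skil from -0.09 to -0.02. Between the siRNAs Nodal ran from 0.03 to 0.07, Acvr2b from -0.19 to -0.09 and Smad7 from -0.24 to -0.12. Cmtr1 ran from -0.17 to -0.02 with siRNA 1 and from -0.33 to -0.20 with siRNA 2. Libraries of the same number in different groups had a mean r of 0.010 over 10 pairs, against -0.003 over 30 other pairs. This check showed no pairing by number. With so few libraries per group it cannot exclude a shared culture or batch, which the labels do not give.

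Reads per library limit the low genes most. Lefty2 had 84 to 202 reads and Tgfbr3 28 to 57, and the 9 pathway genes below the filter cannot be compared. Cmtr1 shares exon bases with other genes. Only 3 control libraries enter both comparisons with control, so leaving out 1 of them moves both. Bulk RNA levels do not measure protein, SMAD phosphorylation or the cells in which a gene is expressed.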
